A study of Mus musculus with 2 samples.

Results

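Proteasome subunits and assembly factors were taken as the genes whose symbols follow the Psma to Psmg series, and 46 of the 16803 genes listed by the authors matched. They comprised 7 subunits of the alpha ring, 7 constitutive and 3 inducible subunits of the beta ring, 17 subunits of the 19S regulatory particle, 3 chaperones of 19S assembly, 4 activators, 1 inhibitor and 4 chaperones of 20S assembly. Psma8 and Psmb8 carry symbols of the same series and were not analysed here. The cells were NE4C, a mouse neural stem cell line that is established in culture, kept in Eagle MEM on plates coated with poly-L-lysine. A normally cultured sample (control) and a sample exposed to HTL gave 1 library each. HTL is homocysteine thiolactone, a reactive ring form of homocysteine that attaches to lysines of proteins. Its dose and its duration in this experiment are not given in the sources used here. Both conditions used the same line and no other allele or agent is named for them, so the comparison asks how RNA levels differed between HTL-exposed and control cells.

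The proteasome is the protease that degrades proteins tagged with ubiquitin. Its 20S core is a barrel of stacked rings, in which the outer alpha rings form the gate and the inner beta rings hold the proteolytic sites of Psmb6 (caspase-like), Psmb7 (trypsin-like) and Psmb5 (chymotrypsin-like). The 19S particle binds ubiquitin chains, removes them and unfolds the substrate with a ring of ATPases, while other caps such as PA28 and PA200 open the core without ubiquitin. Dividing cells, neural progenitors among them, depend on it for the timed removal of cell cycle regulators.

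The control library held 10350665 estimated reads over all genes and the HTL library 9102076. Log2 ratios are HTL over control, from reads scaled to these totals, with exact 95% intervals. With 1 library per condition the differences have no replicate check. The p-values, from a two-sided exact binomial test adjusted by Benjamini-Hochberg over the 13442 genes whose reads in the libraries summed to 10 or more, compare these libraries and cover counting error only. A gene is said to have risen or fallen where its adjusted p was at most 0.001. Neural stem markers were present at unequal levels, with 1617 control and 1365 HTL reads of Nes and 894 and 285 of Sox2. Sox1 had 48 and 12 reads, Pax6 69 and 66, and Fabp7 2 in each library. Of the 9 neural stem markers listed, 8 were tested, 2 rose and 3 fell. Notch1 (log2 1.08) and Prom1 (0.51) rose, and Sox2 (-1.46), Sox1 (-1.78) and Vim (-1.01) fell. The summed share of the 9 in the reads was 0.0512% in control and 0.0409% in HTL. Of 5 neuronal markers 1 rose and 1 fell (0.00522% and 0.00586%), the 1 tested astrocyte marker rose, and neither the 1 tested microglial marker nor the 4 fibroblast markers passed the test. Summed over all markers in the table, tested or not, the shares were 0.000222% and 0.000615% for astrocytes, 0.000184% and 0.000176% for microglia and 0.000821% and 0.000989% for fibroblasts. Gfap and Aif1 had 0 reads in the HTL library, which allows a level of up to 0.33 CPM, and Aqp4, S100b, Csf1r and Ptprc were not analysed here. The part of a changing cell makeup in the results below was not tested, and fewer cells of a type cannot be told apart from less RNA per cell.

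As a whole, the proteasome genes moved little and in both directions. None of the 46 reached the study's cutoffs of an adjusted p of at most 0.001 and a log2 ratio of 1 or more in size (exact binomial test), which 10.8% of all tested genes did, 2.81% in the higher and 7.98% in the lower direction. By the adjusted p alone, 18 members (39.1%) differed, 10 higher (21.7%) and 8 lower (17.4%), against 38.6% of all genes, 14.5% higher and 24.1% lower. The share of members that differed was therefore near that of all genes. A mean of at least 1000 reads, called well counted here, was reached by 33 members and by 2039 of the tested genes. Among the well counted genes, 15 of 33 members (45.5%) differed, 8 higher and 7 lower, against 71.4% of all such genes, 33.0% higher and 38.4% lower. Where a coefficient of variation between cultures of 0.1, 0.2 or 0.4 was assumed (edgeR exact test), 0 members differed at the same adjusted p, against 10.1%, 0.893% and 0.0446% of all genes. At 0.1, 6 members and 36.6% of all genes had an unadjusted exact p under 0.05, and at 0.2 and 0.4, 0 members and 16.5% and 3.36% of all genes did.

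The differences of the members were small. A log2 ratio of 0.5 or more in size was found in 5 members (10.9%), each with an adjusted p of at most 0.001, against 44.7% of all genes by size alone and 27.1% by size and p together (8.90% higher, 18.2% lower). Among the well counted genes the same size was reached by 3 of 33 members and by 28.7% of all. The interquartile range of the log2 ratio ran from -0.10 to 0.23 over members and from -0.60 to 0.28 over all genes. Over the well counted genes it ran from -0.34 to 0.27.

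The median log2 ratio was 0.10 for the members and -0.14 for all tested genes, and 26 members (56.5%) lay above 0 against 41.3% of all genes. Over the well counted genes the medians lay closer, at -0.0047 for the members and -0.028 for all. Scaling by TMM raised log2 ratios by 0.13, slightly less for genes of few reads, which put the members' median at 0.23 and the median of all genes at -0.01. Under TMM 19 members rose and 3 fell, against 20.1% and 18.5% of all genes. Psma3, Psma5, Psmc2, Psmc5, Psmd2, Psmd13, Psmd3, Psme3 and Psmg3 were below 0 by library totals and above 0 by TMM, and none of the 9 passed the test under either. All members together took 0.720% of control reads and 0.736% of HTL reads. The plot of log2 ratios by gene shows the members in the order of the structure.

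**Figure D1:**
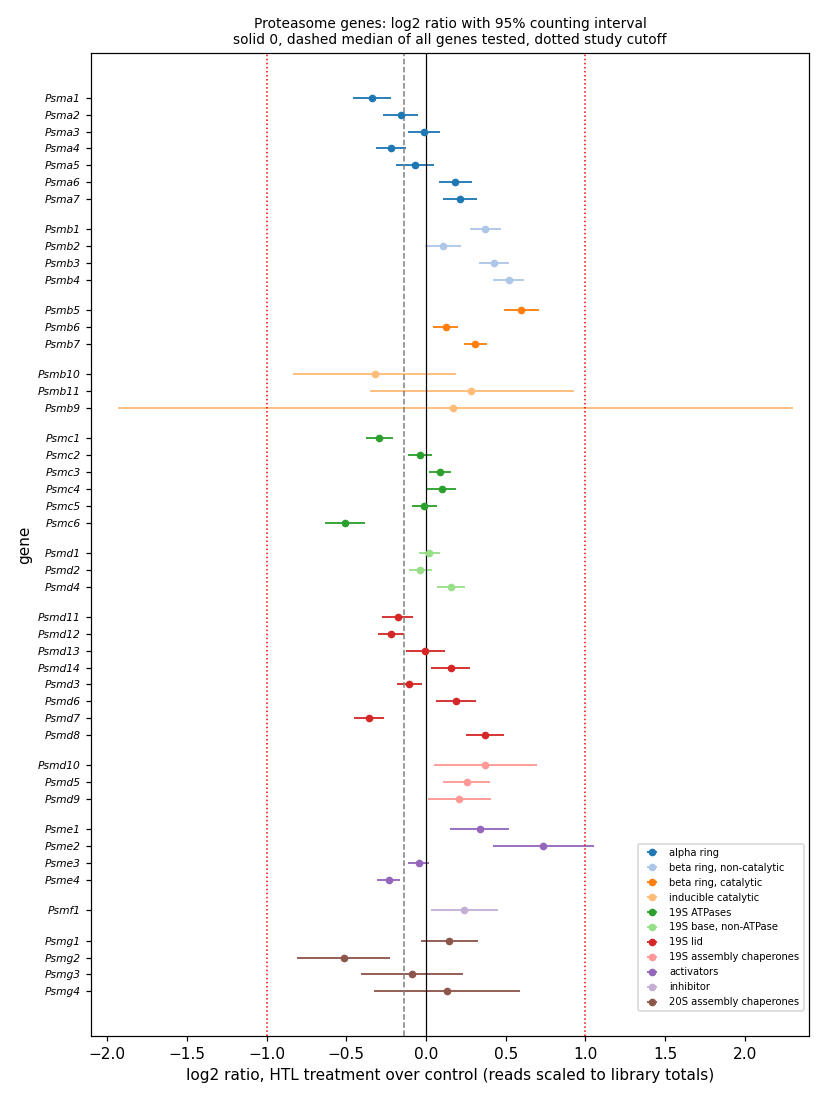
Log2 ratio (HTL over control, reads scaled to library totals, x axis) of each of the 46 genes (y axis, grouped by structure), with bars for the exact 95% counting interval of 1 library per condition; the solid line is 0, the dashed line the median of all tested genes and the dotted lines the study's cutoff. All 7 constitutive beta-ring genes sit right of 0, from 0.11 to 0.60, whereas the 7 alpha-ring genes spread from -0.34 to 0.21 on both sides.

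The 7 genes of the constitutive beta ring all had log2 ratios above 0, by library totals and under the other 3 scalings tried. Relative to the median of genes of like length, Psmb2 and Psmb6 lay at -0.03 and -0.01 and the median of the ring was 0.23 in place of 0.37. Psmb1, Psmb3, Psmb4, Psmb5 and Psmb7 rose, and Psmb2 and Psmb6 did not pass the test. Of all tested genes 14.5% rose, and of the well counted ones, which include all 7, 33.0%. The reads of the 7 genes together were 12967 in control and 14377 in HTL, a log2 ratio of 0.33 (0.30 to 0.37).

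Of the catalytic subunits, Psmb5 had 1164 control and 1550 HTL reads, a 1.51-fold ratio (log2 0.60, 0.49 to 0.71, adjusted exact binomial p = 7.73e-26). It had the highest log2 ratio of the 20S and 19S subunits. Psmb7 had 2978 and 3243 reads (log2 0.31, 0.24 to 0.38, adjusted exact binomial p = 3.19e-16). Psmb6 had 2693 and 2581 reads (log2 0.12, 0.05 to 0.20, adjusted exact binomial p = 0.0042), short of the threshold by library totals and past it under TMM. The catalytic genes thus differed in size of change, with the interval of Psmb5 above those of Psmb7 and Psmb6.

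Among the non-catalytic beta subunits, which complete the ring, Psmb4 had 1605 control and 2021 HTL reads (log2 0.52, 0.42 to 0.61). Psmb3 had 1654 and 1957 reads (log2 0.43, 0.33 to 0.52) and Psmb1 1587 and 1807 (log2 0.37, 0.27 to 0.47). Psmb2 was lowest, with 1286 and 1218 reads (log2 0.11, -0.01 to 0.22, adjusted exact binomial p = 0.106). It passed under TMM (log2 0.24, adjusted exact binomial p = 1.24e-04), where all 7 beta genes and 20.1% of all genes rose. The intervals of Psmb4 and Psmb3 overlapped that of the catalytic Psmb5, and the interval of Psmb2 overlapped that of Psmb6.

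The alpha ring as a whole did not move with the beta ring, although single genes of the rings overlapped. Psma7 rose, Psma1 and Psma4 fell, and the other 4 did not pass the test. Psma1 had 1415 control and 983 HTL reads (log2 -0.34, -0.46 to -0.22), and Psma4 had 2087 and 1577 (log2 -0.22, -0.31 to -0.12). Both lost the call under TMM, where Psma1 stood at -0.21 with an adjusted exact binomial p of 0.0011 and Psma4 at -0.09. Psma6 gained one at 0.31, so that 2 alpha genes rose and 0 fell under TMM. Psma7 had 1452 and 1480 reads (log2 0.21, 0.11 to 0.32), and Psma6 1479 and 1477 (log2 0.18, 0.08 to 0.29). Both lay above Psmb2 and Psmb6 of the beta ring, at 0.11 and 0.12, with overlapping intervals. Psma2 (1494 and 1176 reads), Psma3 (1700 and 1480) and Psma5 (1276 and 1071) had log2 ratios of -0.16, -0.01 and -0.07. The median of the ring was -0.07 by library totals and 0.06 under TMM, so its side of 0 depends on the scaling.

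The share of the rings in the 20S core needs no scaling between libraries. The beta ring held 54.3% of the core's reads in control (exact 95% interval 53.7 to 55.0) and 60.9% in HTL (60.2 to 61.5), a gain of 6.54 percentage points. By sums of FPKM, which divide each gene by its length but leave its ratio as it is, the share was 60.1% and 66.3%. Mean FPKM per beta gene was 1.51 times that per alpha gene in control and 1.97 times in HTL. The 20S core as a whole held 37.8% (37.4 to 38.1) of the reads of the 26S subunits in control and 41.3% (40.9 to 41.7) in HTL, and 51.2% and 55.3% by FPKM.

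Psmb5 and Psmc6 had the highest and the lowest log2 ratio of the 26S subunits, and their promoters are shown to set sequence beside value. Psmb5 lies at chr14:55232644-55236851 on the minus strand and Psmc6 at chr14:45949504-45969367 on the plus strand (build NCBIM37). The promoters run from 250 bases before to 50 after the start and come from RefSeq on GRCm38.p6, at chr14:54617946-54618245 for Psmb5 and chr14:45329574-45329873 for Psmc6. They are written 5′ to 3′ on the strand of the gene, and capitals mark a match to the core of the antioxidant response element, TGACNNNGC or its reverse complement GCNNNGTCA, to which Nfe2l1 and Nfe2l2 bind with small Maf proteins.
Psmb5: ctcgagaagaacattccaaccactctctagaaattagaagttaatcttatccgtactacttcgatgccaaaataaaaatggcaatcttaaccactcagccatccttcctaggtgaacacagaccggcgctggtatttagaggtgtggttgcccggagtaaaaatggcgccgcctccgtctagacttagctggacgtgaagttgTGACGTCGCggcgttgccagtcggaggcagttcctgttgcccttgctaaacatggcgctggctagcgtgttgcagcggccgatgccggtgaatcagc
Psmc6: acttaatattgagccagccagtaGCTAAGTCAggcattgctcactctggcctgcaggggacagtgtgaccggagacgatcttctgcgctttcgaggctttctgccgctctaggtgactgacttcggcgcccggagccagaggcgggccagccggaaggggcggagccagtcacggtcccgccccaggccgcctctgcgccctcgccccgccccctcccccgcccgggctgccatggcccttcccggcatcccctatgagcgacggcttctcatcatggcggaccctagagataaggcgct
The match stood 47 bases before the start of Psmb5 and 227 bases before that of Psmc6.

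RefSeq promoters were matched for 39 of the 46 members, which gave 42 promoters. No promoter was matched for Psmb1, Psmb2, Psmb7, Psmc3, Psmd3, Psmd7 and Psmg2, so these genes were not searched for any motif. The antioxidant response element core was found in 6 of them (14.3%) and in 12.4% of all 32851 promoters of that length, on either strand. The windows around the 6 matches are shown to set these members side by side, with the match in capitals and 10 bases on each side where the promoter reached that far.
Psmb5: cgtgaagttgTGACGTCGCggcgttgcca
Psmb6: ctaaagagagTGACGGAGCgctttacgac
Psmc6: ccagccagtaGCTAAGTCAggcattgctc
Psmd12: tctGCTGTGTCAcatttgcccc
Psmd9: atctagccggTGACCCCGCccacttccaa
Psme4: cgctgcggctGCAGCGTCAccagaagagc
Of these genes 1 rose (Psmb5), 3 fell (Psmc6, Psmd12 and Psme4) and 2 did not pass the test, with log2 ratios from -0.51 to 0.60. The CCAAT box, CCAAT or ATTGG, was found in 14 member promoters (33.3%) and in 37.4% of all promoters. A match is a run of letters and not a shown binding site.

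The inducible catalytic subunits replace the constitutive ones in the immunoproteasome and, for Psmb11, in the thymoproteasome of thymic epithelium. They were near the bottom of the scale in both libraries. Psmb9, the counterpart of Psmb6, had 5 reads in each library (0.62 and 0.70 FPKM), the lowest level of any member. Psmb10, the counterpart of Psmb7, had 81 and 57 reads (6.23 and 4.98 FPKM; log2 -0.32, -0.84 to 0.19). Psmb11 had 42 and 45 reads (0.96 and 1.15 FPKM; log2 0.28, -0.35 to 0.93). None passed the test, and at this depth a change of the size seen for Psmb5 was not detectable for Psmb9, whose interval ran from -1.93 to 2.30. Beside the constitutive partner, Psmb9 made up 0.185% (0.060 to 0.432) of the reads of the pair in control and 0.193% (0.063 to 0.451) in HTL, and Psmb10 2.65% (2.11 to 3.28) and 1.73% (1.31 to 2.23).

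Interferon is the usual inducer of Psmb9, Psmb10 and PA28 alpha and beta, and of its listed target genes 1 rose and 1 fell. Of 7 listed, 6 were in the table and 4 were tested, and of all tested genes 14.5% rose and 24.1% fell. B2m, the light chain of MHC class I, rose from 379 to 656 reads (log2 0.98), Irf1, a transcription factor of the pathway, fell from 211 to 46 past the study's cutoffs (log2 -2.00), and the remaining 2 did not pass the test. Tap1, the peptide transporter encoded beside Psmb9, had 8 reads in each library.

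The 19S particle as a whole was close to level. Of its 17 subunits 2 rose and 4 fell, against 14.5% and 24.1% of all genes and 33.0% and 38.4% of the well counted ones. The other 11 did not pass the test. The reads of the particle were 39360 in control and 33604 in HTL (log2 -0.04, -0.06 to -0.02). The median of its members was -0.01 by library totals and 0.12 under TMM. Under TMM 7 rose and 3 fell, against 20.1% and 18.5% of all genes.

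Of the 6 ATPases, which unfold the substrate and open the gate, Psmc6 and Psmc1 fell. Psmc6 had 1383 control and 854 HTL reads, a 0.702-fold ratio (log2 -0.51, -0.63 to -0.39, adjusted exact binomial p = 1.92e-15), and Psmc1 had 2734 and 1963 (log2 -0.29, -0.38 to -0.21). Both also fell under TMM, at -0.38 and -0.16, where Psmc3 and Psmc4 rose, at 0.22 and 0.23. By library totals Psmc2, Psmc3, Psmc4 and Psmc5 lay between -0.04 and 0.10, with Psmc4 highest at 2049 and 1929 reads. Subunits that form a single ring in the protein thus had unequal RNA ratios, and the intervals of Psmc6 and Psmc4 did not overlap.

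In the rest of the base, Psmd4, a ubiquitin receptor, rose relative to the library totals, with 2206 and 2162 reads (log2 0.16, 0.07 to 0.24), whereas the scaffold subunits Psmd1 (3886 and 3464 reads, log2 0.02) and Psmd2 (3317 and 2844, log2 -0.04) did not pass the test. In the lid, Psmd8 rose with 1090 control and 1238 HTL reads (log2 0.37, 0.25 to 0.49). Psmd7, the partner of the deubiquitinase Psmd14, fell with 2197 and 1508 reads (log2 -0.36, -0.45 to -0.26), and Psmd12 fell with 2773 and 2092 (log2 -0.22, -0.30 to -0.14). Psmd14 itself had 1078 and 1055 reads (log2 0.15, 0.03 to 0.28, adjusted exact binomial p = 0.0271). Psmd3, Psmd6, Psmd11 and Psmd13 ranged from -0.18 to 0.19 and did not pass the test. Psmd7 kept its call under TMM and Psmd12, at -0.09, did not.

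The Psm-named chaperones of assembly lay below the constitutive subunits, at 10.4 to 49.8 FPKM in control and 13.3 to 54.9 in HTL. The 3 chaperones that guide ATPases into the base had log2 ratios above 0, but none passed the test. Psmd10 (gankyrin) had 153 control and 174 HTL reads (log2 0.37, 0.05 to 0.69), Psmd5 728 and 764 (log2 0.25, 0.11 to 0.40) and Psmd9 414 and 421 (log2 0.21, 0.01 to 0.41). Psmd5 passed under TMM. Of the 20S chaperones, which build the alpha ring, Psmg2 fell from 262 to 161 reads (log2 -0.52, -0.81 to -0.23, adjusted exact binomial p = 8.05e-04) and lost the call under TMM (-0.39, adjusted exact binomial p = 0.0146). Its partner in the same dimer, Psmg1, had 514 and 500 reads (log2 0.15, -0.03 to 0.33), and the other dimer, Psmg3 and Psmg4, had 180 and 149 (log2 -0.09) and 84 and 81 reads (log2 0.13). The intervals of Psmg1 and Psmg2 did not overlap.

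Of the activators, Psme1 and Psme2, the PA28 alpha and beta subunits, rose. Psme2 had 142 control and 208 HTL reads, a 1.66-fold ratio and the highest of any member (log2 0.73, 0.42 to 1.05, adjusted exact binomial p = 7.69e-06), and Psme1 had 458 and 509 (log2 0.34, 0.15 to 0.52, adjusted exact binomial p = 7.98e-04). They lie near each other on the same chromosome, Psme1 at chr14:56196960-56200366 and Psme2 at chr14:56206278-56209950 (build NCBIM37). Psme3, the nuclear PA28 gamma, was more abundant, at 4085 and 3477 reads (log2 -0.05, -0.11 to 0.02). PA28 alpha and beta together therefore went from 12.8% (11.9 to 13.8) to 17.1% (16.0 to 18.3) of PA28 reads, and from 29.1% to 36.7% by FPKM, Psme3 being the longest of the 3 transcripts. Psme4, the PA200 cap, fell from 3749 to 2801 reads (log2 -0.24, -0.31 to -0.16) and lost the call under TMM at -0.11. Psmf1, the PI31 inhibitor, had 370 and 384 reads (log2 0.24, 0.03 to 0.45) and did not pass the test.

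Levels between genes were compared per length, in FPKM. The 31 constitutive subunits of the 26S particle spanned 67.2 to 303.2 FPKM in control, a 4.51-fold range, and 60.2 to 374.7 in HTL, a 6.22-fold range. The SD of their log2 FPKM was 0.57 in control and 0.67 in HTL, so the spread among subunits that assemble at fixed ratios was wider in the HTL library. Psmb7 was the highest member in both libraries (303.2 and 374.7 FPKM). The lowest of the 31 was Psmd14 in control (67.2 FPKM) and Psmc6 in HTL (60.2 FPKM). The order was largely kept (Spearman rho 0.895 across these 31 genes, which share the libraries and are not replicates). The chaperones, PA28 alpha and beta and PI31 lay lower, at 9.97 to 49.8 FPKM in control, whereas PA28 gamma stood at 150.1 and 145.0 FPKM, within the range of the subunits.

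**Figure D2:**
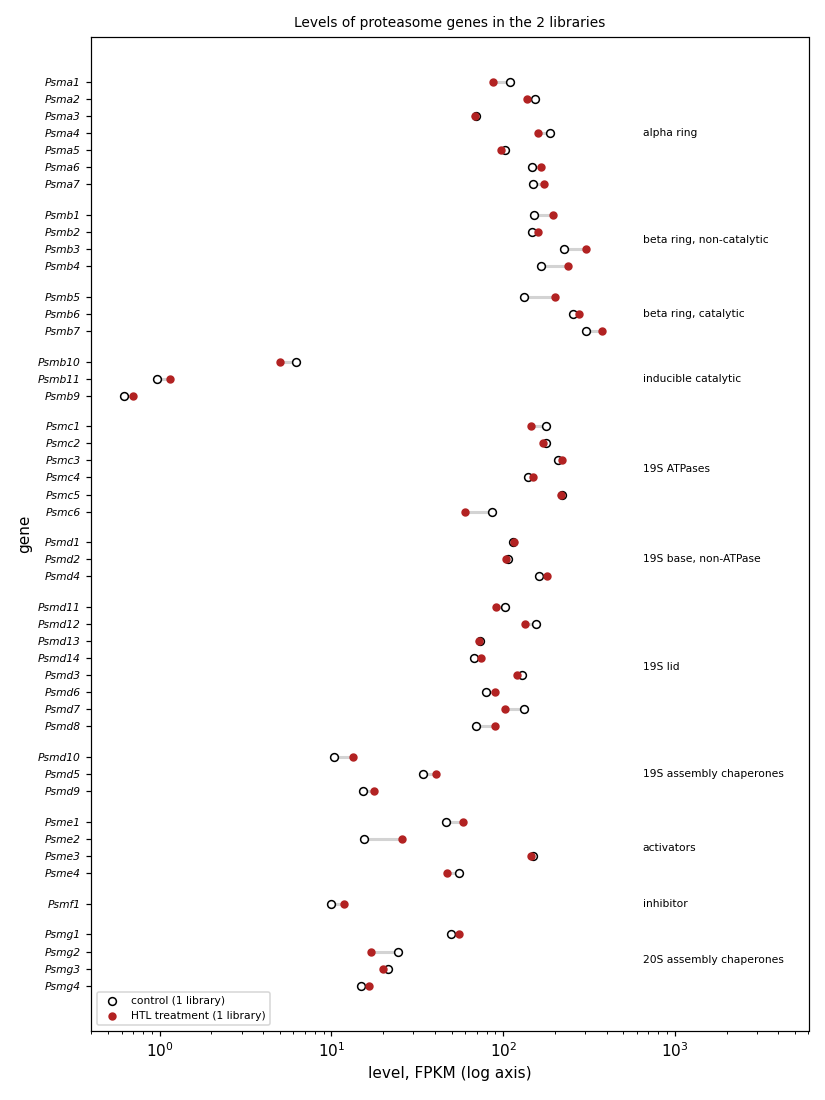
Level in FPKM (log x axis) of each of the 46 genes (y axis, grouped by structure), with open circles for the control library and filled circles for the HTL library, 1 each. The constitutive subunits lie between 60.2 and 374.7 FPKM, the filled circles of the beta ring lie to the right of the open ones, and Psmb9, at 0.62 and 0.70 FPKM, is lowest.

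Transcript length moved with the log2 ratio over all genes, from a median of 0.14 in the shortest of 10 length bins to -0.38 in the longest, and 39 of the 46 members were in the 4 shortest bins. Relative to the median of their own bin, 31 members lay above and the members' median was 0.08. By this measure 5 of the 7 beta-ring genes lay above 0, and the median of the alpha ring went from -0.07 to -0.05. The rings overlap in length, at 953 to 2374 bases for alpha and 731 to 1036 for beta. Psma2, Psma6 and Psma7, with lengths inside the beta range, had log2 ratios of -0.16, 0.18 and 0.21, against a beta-ring median of 0.37. Psmb2 and Psmb6 of the beta ring, at 0.11 and 0.12, lay below Psma6 and Psma7. Psme4, at 6454 bases, changed side, from -0.24 to 0.14 relative to its bin. Members in the shortest bin all stood lower by its median, Psma7 at 0.08 in place of 0.21 and Psme1 at 0.20 in place of 0.34. Across the 31 core subunits the Spearman rho of length and log2 ratio was -0.54, and -0.31 across all 46. How far length accounts for any single ratio was not tested.

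**Figure D3:**
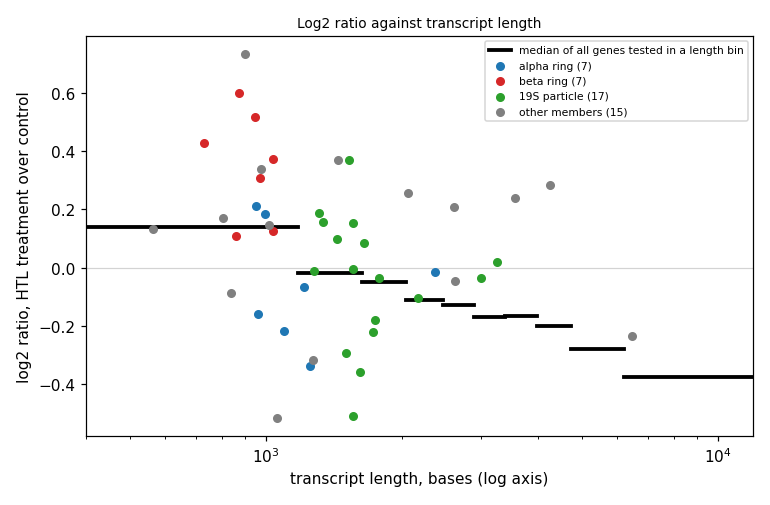
Log2 ratio (HTL over control, y axis) against transcript length in bases (log x axis) for the 46 genes, 1 point per gene coloured by structure, with black bars for the median of all tested genes in each of 10 length bins. Bin medians run from 0.14 down to -0.38, and 5 of the 7 beta-ring points lie above the bar of their bin.

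Reads of some members may be shared with other loci. The microRNA gene Mir686 lies in an exon of Psmb5 on the same strand and was assigned 1 control and 30 HTL reads, and adding them gave Psmb5 a log2 ratio of 0.62. Psme2b, a near copy of Psme2, had 2 and 7 reads, and with them Psme2 stood at 0.76. Gm6787, a near copy of Psmb7, had 8 and 1 reads, and with them Psmb7 stood at 0.30. Exons of 10 members overlapped those of another gene, among them Psmb7, Psma4 and Psme1, and the use of strand in counting is not given in the sources used here.

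Ubb and Rps27a, which encode ubiquitin as a chain of repeats and as a fusion with a ribosomal protein, rose. Of the 4 genes for ubiquitin and its activating enzymes described here 3 rose and 1 fell, against 14.5% and 24.1% of all genes. The median log2 ratio of the 4 was 0.40, and together they took 0.289% of control and 0.480% of HTL reads. Ubb had 17219 control and 29168 HTL reads (log2 0.95, 0.92 to 0.97), and Rps27a had 7444 and 9822 (log2 0.59, 0.54 to 0.63). The interval of Ubb lay above that of Psmb5. Uba1, the main activating enzyme, rose by less (4250 and 4339 reads, log2 0.22), and Uba6, the alternative one, fell from 1014 to 390 reads (log2 -1.19, -1.37 to -1.02), past the study's cutoffs.

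Nfe2l1 encodes the transcription factor that drives proteasome genes when the protease is limiting. It rose from 2633 to 4126 reads, 57.7 to 110.5 FPKM (log2 0.83, 0.76 to 0.90). Of the 6 listed control genes 2 rose, against 14.5% of all genes. The other was the small Maf gene Mafk, with 86 and 184 reads (log2 1.28, 0.91 to 1.67), past the study's cutoffs. Nfe2l2 had 829 and 816 reads (log2 0.16, 0.02 to 0.30), and Ngly1, the deglycosylase that processes the Nfe2l1 protein, had 32 and 15 (log2 -0.89, -1.90 to 0.02). Neither passed the test, nor did Mafg and Maff. Under TMM 3 of the 6 rose, Nfe2l2 among them at 0.29, against 20.1% of all genes.

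Of 9 proteasome genes named outside the Psm series 1 rose and 2 fell, against 14.5% and 24.1% of all genes, with a median of 0.04. Under TMM 3 rose and 1 fell, against 20.1% and 18.5% of all genes, Usp14 no longer passing. Akirin2, the nuclear import factor of the proteasome, rose from 624 to 893 reads (log2 0.70, 0.55 to 0.85). The deubiquitinase Usp14 fell from 1398 to 1038 (log2 -0.24), and the scaffold Ecm29, listed as AI314180, from 1821 to 1179 (log2 -0.44, -0.55 to -0.34). Pomp, the chaperone that adds beta subunits to the growing core, had 1259 and 1062 reads (log2 -0.06, -0.18 to 0.06) and did not pass the test beside a beta ring of which 5 genes rose.

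Of 8 shuttle and segregase genes, which bring ubiquitinated proteins to the 19S particle, 2 rose and 1 fell, with a median of 0.05. Of all tested genes 14.5% rose and 24.1% fell. Under TMM 6 of the 8 rose and 1 fell, against 20.1% and 18.5% of all genes. Ubqln1 rose from 2352 to 2873 reads (log2 0.47, 0.39 to 0.55) and its paralog Ubqln2 fell from 951 to 499 (log2 -0.74, -0.90 to -0.59), whereas Ubqln4, with 2451 and 2267 (log2 0.07, -0.01 to 0.16), did not pass the test. Rad23b, a shuttle that docks on the 19S particle, had 6340 and 5628 reads (log2 0.01, -0.04 to 0.07). Vcp, the segregase itself, had 7912 and 7129 (log2 0.04, -0.01 to 0.08), and its cofactor Ufd1l rose from 359 to 423 (log2 0.42, 0.22 to 0.63).

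**Figure D4:**
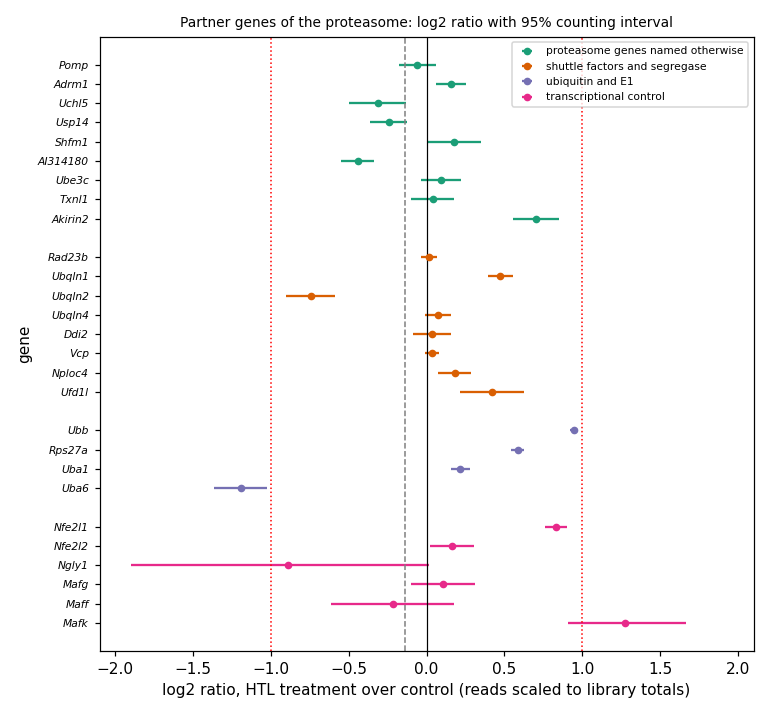
Log2 ratio (HTL over control, reads scaled to library totals, x axis) of the partner genes (y axis, by list), with bars for the exact 95% counting interval of 1 library per condition; the solid line is 0, the dashed line the median of all tested genes and the dotted lines the study's cutoff. Mafk at 1.28 lies beyond the upper cutoff and Uba6 at -1.19 beyond the lower one.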

How the data were processed

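Total RNA of NE4C cells was prepared with TRIzol and the TruSeq RNA kit and sequenced on BGISEQ, 1 library per condition, with groups taken from the sample titles. The expected counts in the table deposited by the authors are estimated counts per gene from RSEM, not normalized, and were rounded to whole reads here. The FPKM values deposited by the authors are scaled to transcript length and library size, with a lowest value of 0.01, and were used for levels, for shares within complexes and in 1 alternative. The submitters' processing notes name build mm9. The mapper, versions, annotation and use of strand are not given in the sources used here. The authors' log2 ratio, p-value and FDR columns were not used.

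Each gene's reads were set against the library totals in a two-sided exact binomial test (scipy 1.17.1), with Benjamini-Hochberg adjustment over genes whose reads in the libraries summed to 10 or more, and 0.5 read was added for log2 ratios. Intervals are Clopper-Pearson at 95% and cover counting error only. edgeR's quasi-likelihood test and DESeq2 could not be fitted with 1 library per condition. edgeR 4.0.16 gave TMM factors and an exact test with an assumed coefficient of variation (0.1, 0.2 or 0.4). The procedure was tested on simulated data. Other scalings, filters, added reads, cutoffs, a length correction and near copies were tried.

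Members, gene lists and the ring shares were chosen with earlier results of these data known. Named genes were those past the study's cutoffs, the highest and lowest of each structural group, the catalytic subunits and their inducible counterparts, the highest and lowest by FPKM, and from the partner lists those past the cutoffs, the highest and lowest of each and Nfe2l1. Genes named beyond the rule were chosen after their values were seen. A few genes of the partner lists are not reported here, and the lists were summarised without them. Symbols were those in the table. Positions are from GENCODE M1 on NCBIM37.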

Additional observations from a re-analysis of the deposited data

How the results depend on the processing

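No replicate could be left out. No paired analysis was possible because control and HTL hold 1 library each. With an assumed coefficient of variation between cultures of 0.1, 0.2 or 0.4, 0 members differed at an adjusted p of at most 0.001 (edgeR exact test). Of all genes 10.1%, 0.893% and 0.0446% did, and 18 members differed by counting error alone. Of the partner genes reported, only Ubb, Uba6, Nfe2l1 and Mafk differed at 0.1, and none did at 0.2 or 0.4. The number called at the study's cutoffs was 0 under the other scalings, filters, added reads and the adjusted p of at most 0.05, and 5 where a log2 ratio of 0.5 in size was enough. The members' median of 0.10 was 0.23 under TMM and 0.24 under the median of ratios, and -0.0047 at a mean of at least 1000 reads, a filter chosen after seeing the data. Under TMM 9 members gained a call, 5 lost it and 9 uncalled members changed side. Relative to its length bin Psme4 turned from -0.24 to 0.14, since genes of its length had a median of -0.38. The beta-ring gain was 6.54 percentage points by reads and 6.18 by FPKM, the latter chosen after seeing the data.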

Other observations

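A search added after the values were seen looked for the core of the interferon-stimulated response element, on both strands of the member promoters. It matched in 5 of 42 (11.9%) and in 3.44% of all promoters, in Psmb3, Psmd4, Psmd9, Psme1 and Psmg4. Of these genes 3 rose and 2 did not pass the test, with log2 ratios from 0.13 to 0.43. Among all members 21.7% rose, and among all tested genes 14.5%. The searched promoters of Psmb9, Psmb10 and Psme2 held no match. No test was made of this share.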
